A study of Homo sapiens with 18 samples.

Results

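Knockdown of EMD in DU145 cells was measured by RNA sequencing of 6 libraries, 3 from knockdown cells and 3 from control cells, out of the 18 libraries of a study on 3 human prostate cancer lines. The libraries were chosen by their line and genotype labels. DU145 is an established line from a brain metastasis of prostate carcinoma, and the study's other lines are C4-2B and 22Rv1. EMD encodes emerin, an inner nuclear membrane protein.

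Control cells had received a scrambled siRNA and knockdown cells an siRNA against EMD, both with Lipofectamine 3000, according to the study's shared treatment text. The mix was taken off after 24 h, and the time of harvest is not given in the sources used here. The library names of the 3 knockdown samples carry the prefix "shEMD", which usually marks a short hairpin, so whether the knockdown was transient or came from a selected line cannot be told from the labels. All 6 samples were grown in DMEM with serum and carry the same batch date. The labels give triplicates without naming separate cultures, so the p-values below measure the spread between these samples, which may be technical.

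Emerin belongs to the LEM-domain proteins, which hold chromatin to the nuclear lamina through the small DNA-binding protein BAF. It binds lamins, nesprins and SUN proteins of the LINC complex, which ties the cytoskeleton to the nucleus, and it also binds actin. Emerin is known to affect the nuclear entry of MRTF, the actin-sensing partner of serum response factor (SRF), and of beta-catenin.

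Between 21024352 and 43311727 reads were assigned to 37256 genes per library. A test was run on 19377 genes that passed the low-count filter. Levels are given as CPM, the read count scaled to a common library size, which does not correct for gene length, so they compare libraries and not genes. Correlations of log CPM were 0.9942 to 0.9967 within an arm and 0.9767 to 0.9792 between arms. The first principal component held 75.2% of the variance, with the 3 controls at one end and the 3 knockdown libraries at the other. The epithelial markers KRT8, KRT18, EPCAM and CDH1 were detected in all 6 libraries, and the androgen-regulated KLK3 and KLK2 were at or below 28 and 14 reads per library.

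EMD itself was at 45.1, 47.7 and 40.7 CPM in the controls and at 4.61, 4.77 and 5.01 CPM in the knockdown. The arms did not overlap, and the level fell 9.27-fold (log2 change -3.21 ± 0.077, SE; adjusted p = 1.7e-22, edgeR's quasi-likelihood test). The raw reads were 946, 1997 and 1372 in the controls against 168, 136 and 179. EMD lies at chrX:154379197-154381523 on the plus strand of GRCh38, in Xq28.

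Of the 19377 genes, 9232 (47.6%) changed at an adjusted p below 0.05, 4664 of them upward (24.1%) and 4568 downward (23.6%). The median log2 change over all genes tested was 0.012. At least 2-fold changes were seen for 716 genes that rose (3.7%) and 876 that fell (4.52%), together 8.22% of those tested. The 3 libraries of an arm all lay on one side of the other 3 for 10622 genes (54.8%). The calls depended on depth of coverage. Among genes over 100 CPM 68.8% were called, but only 0.62% rose and 2.21% fell at least 2-fold, whereas under 0.5 CPM 9.15% were called. A call alone therefore marks close to every other gene, and the counts in each group of genes below are read against these shares and that median.

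**Figure D1:**
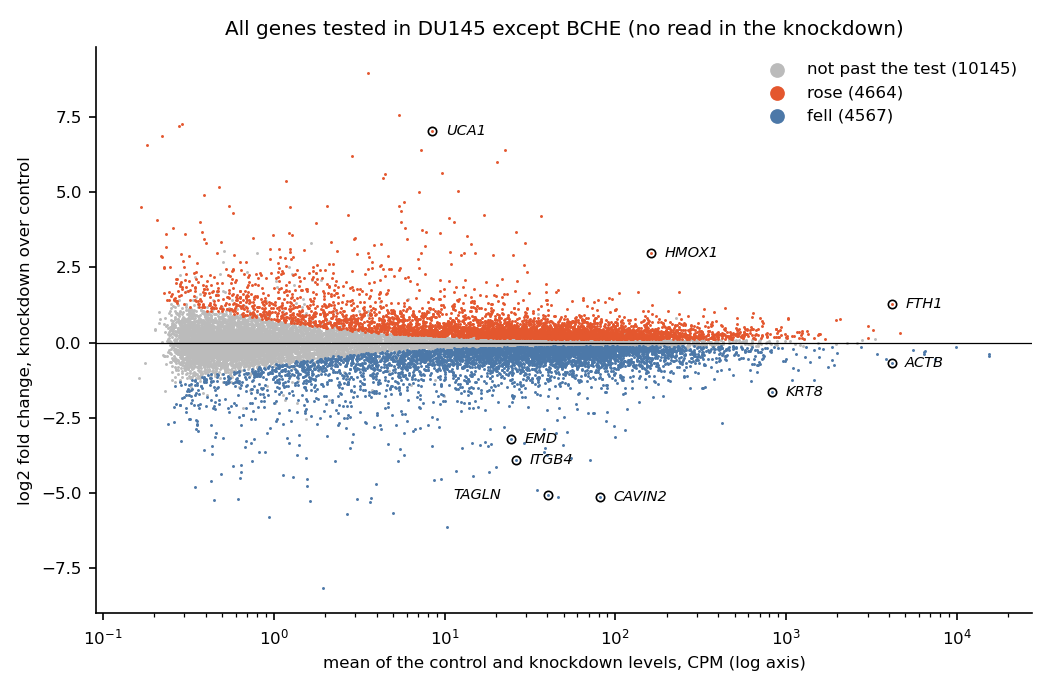
Log2 fold change (knockdown over control) against the mean of the control and knockdown levels in CPM (log axis), 1 point per gene tested, orange for genes that rose, blue for genes that fell and grey for the rest; BCHE, without a read in the knockdown, is left out. Named genes are ringed: EMD lies at -3.21, CAVIN2 at -5.13, HMOX1 at 3.00 and FTH1 at 1.29.

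Before the genes are described by function, 1 feature of position touches all of them. Long runs of neighbouring genes were shifted together. On chromosome 7, the median log2 change was 0.0119 over the 308 genes tested up to 60 Mb and -0.468 over the 587 genes beyond it, of which 364 fell and 22 rose. On chromosome 8, the 240 genes up to 40 Mb had a median of -0.455 (141 fell, 10 rose) and the 504 genes beyond it 0.487 (260 rose, 40 fell). Chromosome 21 (median -0.452 over 230 genes) and chromosome 15 (-0.36 over 664 genes) were shifted over most of their length. Counted in 20 Mb windows over genes of at least 1 CPM on average, the exceptions were the first window of chromosome 21 (-0.0348 over 36 genes) and the last of chromosome 15 (0.245 over 15 genes). Shorter runs were seen on chromosome 5 up to 60 Mb (-0.311), chromosome 10 up to 40 Mb (-0.447, against 0.0726 beyond it), the last 20 Mb window of chromosome 11 (-0.523) and chromosome 20 from 20 Mb on (-0.339).

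The shifts were present in each knockdown library. For genes of at least 10 CPM, the median log2 ratio to the control mean on chromosome 7 beyond 60 Mb was -0.47, -0.41 and -0.49 in the 3 knockdown libraries and -0.03, 0.02 and 0.00 in the 3 controls. On chromosome 8 beyond 40 Mb it was 0.45, 0.52 and 0.40 in the knockdown and -0.02, 0.01 and 0.00 in the controls. The control libraries stayed within 0.03 of their own mean, which was the reference. The runs were chosen after the window medians of these same libraries had been seen. The ratios therefore show how alike the 3 knockdown libraries were and are no separate test of the shift. In the other lines, over the same 15719 genes, chromosome medians of the knockdown response lay between -0.11 and 0.0707 in C4-2B and between -0.0644 and 0.141 in 22Rv1, against -0.447 to 0.295 in DU145. On the 5 chromosomes whose median was beyond 0.2 in either direction (7, 8, 15, 20 and 21), 501 of 3008 genes rose and 1250 fell, and on the others 4163 of 16369 rose and 3318 fell. The part of position in any gene or list below was not tested, so list medians are also given without members on those 5 chromosomes where that moves them by more than 0.05 or by over 1.5 times. Such medians still hold any members within the shifted runs of chromosomes 5, 10 and 11. They also leave out any on the unshifted part of chromosome 7.

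**Figure D2:**
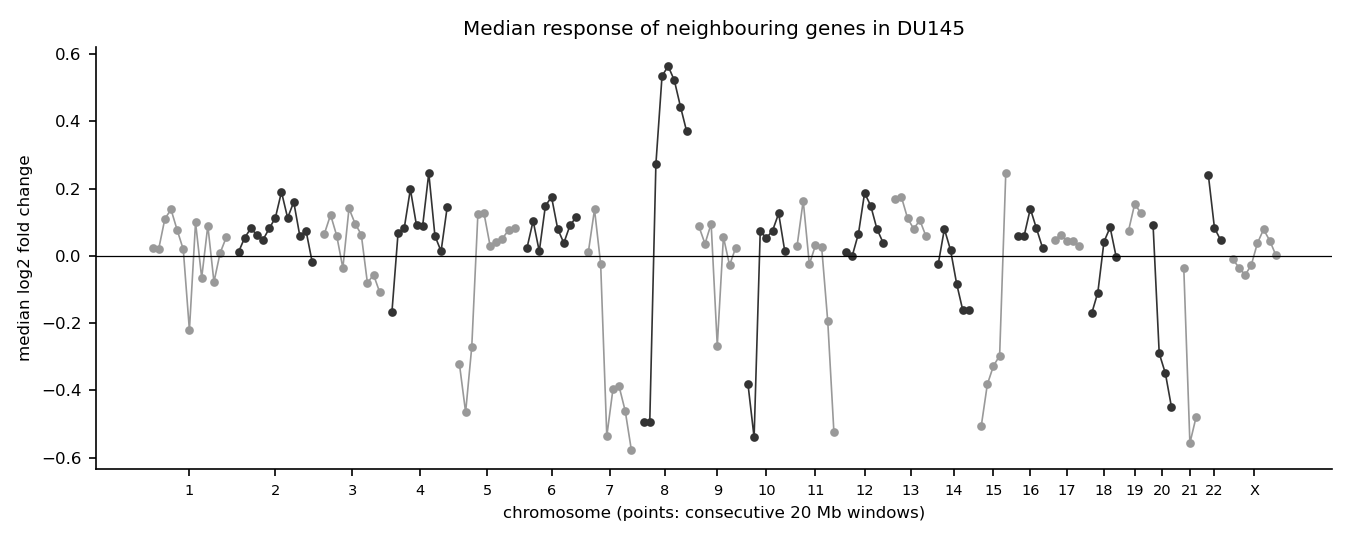
Median log2 fold change (knockdown over control) of the genes of at least 1 CPM on average in consecutive 20 Mb windows, 1 point per window, joined within each chromosome. Most windows lie near 0, while windows of chromosomes 5, 7, 8, 10, 11, 15, 20 and 21 lie in runs below -0.25 and most of chromosome 8 lies above 0.25, up to 0.564.

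Genes of the actin cytoskeleton, contractility and SRF-MRTF transcription mostly fell. Of 33 tested, 25 fell and 4 rose, with a median log2 change of -0.561 (-0.431 over the 27 members off the shifted chromosomes, of which 19 fell and 4 rose). TAGLN, the actin-bundling protein transgelin, was at 79.4, 81.1 and 74.9 CPM in the controls and at 2.47, 2.45 and 2.16 CPM in the knockdown (log2 change -5.06 ± 0.077, adjusted p = 8.8e-27). MYL9, a regulatory light chain of non-muscle myosin, was at 192.8, 200.002 and 187.5 CPM against 40.8, 41.4 and 42.8 CPM (log2 change -2.22), on shifted chromosome 20. Both genes had every knockdown library below every control by several fold.

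Other cytoskeletal genes fell by less. ACTB, beta-actin, went from 4943, 5310 and 5018 CPM to 3165, 3304 and 3194 CPM, a log2 change of -0.66. FLNA, the actin cross-linker filamin A and a neighbour of EMD in Xq28, went from 1888, 2157 and 2093 CPM to 836, 875 and 876 CPM (-1.25). TPM4, a tropomyosin, went from 869, 913 and 871 CPM to 367, 378 and 351 CPM (-1.28). Further falls were seen for CALD1 (caldesmon, -1.17), ZYX (zyxin of focal adhesions, -1.15), FHL2 (-1.08), FLNC (-0.99), MYH9 (-0.57) and SRF itself (-0.56). Of these, CALD1 and ZYX at least lie on the shifted part of chromosome 7. Against the direction of the falls, FOS rose by 0.74 and EGR1 by 0.49, both SRF-driven immediate-early genes, as did FHL1 (0.16). ACTN4, VCL and MYH10 were within 0.11 of 0 and did not pass.

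The CArG box, the site bound by SRF, was looked for in the 250 bases upstream of the start of each gene (RefSeq, GRCh38.p14; CC, 6 A or T, GG, which reads alike on both strands). Of 28 members matched to a promoter, 7 (25%) held it, against 1.15% of 27195 promoters. Those 7 were ACTG1, CNN2, FHL2, FLNA, SRF and TPM4, which fell, and EGR1, which rose. SRF and EGR1 held 2 boxes each. The list was drawn up as SRF and MRTF targets and actin genes, so its share of boxes is no test of SRF in this response. The upstream stretches of the 3 genes among these 7 with the largest falls are shown with the box in capitals. It starts 94, 173 and 101 bases before the gene start in FLNA, TPM4 and FHL2.
FLNA, chrX:154374635-154374884, minus strand: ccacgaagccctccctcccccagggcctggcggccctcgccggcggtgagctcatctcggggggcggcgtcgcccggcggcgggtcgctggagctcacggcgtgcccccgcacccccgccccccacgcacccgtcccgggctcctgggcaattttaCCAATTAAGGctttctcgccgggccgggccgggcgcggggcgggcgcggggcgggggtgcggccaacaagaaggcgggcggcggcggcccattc
TPM4, chr19:16067288-16067537, plus strand: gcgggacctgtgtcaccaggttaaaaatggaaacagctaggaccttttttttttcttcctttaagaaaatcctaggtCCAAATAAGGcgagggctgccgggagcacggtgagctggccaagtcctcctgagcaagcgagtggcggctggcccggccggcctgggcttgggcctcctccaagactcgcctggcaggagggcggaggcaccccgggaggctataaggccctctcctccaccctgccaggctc
FHL2, chr2:105438514-105438763, minus strand: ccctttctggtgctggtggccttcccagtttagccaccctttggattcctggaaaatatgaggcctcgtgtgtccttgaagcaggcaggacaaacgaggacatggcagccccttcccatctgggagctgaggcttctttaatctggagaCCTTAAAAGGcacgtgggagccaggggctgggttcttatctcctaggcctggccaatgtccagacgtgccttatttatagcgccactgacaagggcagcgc

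Genes of caveolae, the flask-shaped membrane pits coated by caveolins and cavins, fell in all 8 cases tested (median -0.304). CAVIN2 was at 163, 161 and 153 CPM in the controls and at 4.56, 4.28 and 4.76 CPM in the knockdown (log2 change -5.13 ± 0.066, adjusted p = 4.8e-28). EHD2, an ATPase at the caveolar neck, fell by 1.47 on the log2 scale. The structural members CAV1 and CAVIN1 changed by only -0.23 and -0.26. Of the 8 genes, 2 lie on the 5 shifted chromosomes, among them CAV2 (-0.42) on the shifted part of chromosome 7. The 6 members off those chromosomes all fell as well (median -0.304).

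Hemidesmosomes anchor epithelial cells to laminin-332 of the basement membrane. Of 9 genes of these structures, 7 fell and 2 rose (median -0.405, and -0.337 over 8 members off the shifted chromosomes). ITGB4, the integrin beta chain found in hemidesmosomes, was at 47.5, 49.7 and 49.7 CPM against 3.19, 3.22 and 3.47 CPM, a 14.9-fold fall. COL17A1, the transmembrane collagen of the same junction, was at 20.1, 22.4 and 24.1 CPM against 5.82, 6.24 and 4.79 CPM (-1.99). ITGA6, the alpha chain that pairs with ITGB4, changed by -0.46, and the laminin chains went both ways, with LAMA3 at 0.60 and LAMB3 at -0.41.

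Of 14 integrin genes 8 fell and 2 rose (median -0.418, and -0.335 over 11 members off the shifted chromosomes). ITGB3 was at 15.7, 14.6 and 15.0 CPM against 3.79, 2.84 and 4.26 CPM (-2.04), and the collagen receptor chain ITGA2 at 136, 142 and 141 CPM against 59.0, 59.9 and 57.6 CPM (-1.25). ITGB1, the common beta chain, went from 2252, 2276 and 2244 CPM to 1257, 1341 and 1234 CPM (-0.82), and ITGA3 fell by 0.55. ITGA2 and ITGB1 lie within the shifted runs of chromosomes 5 and 10 and are still among those 11 members. ITGAV, at 118 and 126 CPM on average, did not pass.

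Cell-cell junction genes moved in both directions, 9 of 26 up and 12 down (median -0.148). CDH1, E-cadherin, fell from 22.3, 23.2 and 22.3 CPM to 4.48, 5.36 and 5.29 CPM (-2.17 ± 0.083, adjusted p = 4.7e-18). The classical cadherin CDH3 (-1.34), the plaque protein JUP (plakoglobin, -1.53), CLDN4 (-1.50) and DSG2 (-0.66) fell as well. In the opposite direction, CLDN7 rose from 5.20, 5.62 and 6.47 CPM to 13.7, 14.3 and 13.5 CPM (1.25). EPCAM (0.57), DSP (desmoplakin, 0.53), F11R (0.46) and the epithelial splicing factors ESRP1 (0.72) and ESRP2 (0.73) also rose.

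The loss of CDH1 RNA was not accompanied by a uniform shift of genes linked to epithelial-mesenchymal transition: 4 of 17 rose and 5 fell (median -0.0426, and -0.0281 over 14 members off the shifted chromosomes). VIM, vimentin, was at 1991, 2049 and 1960 CPM against 1923, 2046 and 1856 CPM and did not pass (log2 change -0.04, adjusted p = 0.53). SNAI2 rose from 0.931 to 2.39 CPM on average (1.39) and ZEB2 from 3.97 to 5.45 CPM (0.49), while ZEB1 fell from 49.1 to 33.8 CPM (-0.54). SNAI2 lies on the shifted long arm of chromosome 8, and ZEB1 and VIM lie within the shifted run of chromosome 10. The 20 Mb window of ZEB1 had a median of -0.54 over 55 genes. CDH2, N-cadherin, was under 1 CPM in both arms and did not pass.

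Keratins, the intermediate filaments of epithelial cells, fell more often than they rose. Of 10 tested, 5 fell and 2 rose (median -0.504). KRT8 was at 1232, 1297 and 1201 CPM against 403, 425 and 382 CPM (-1.63), and its usual partner KRT18 at 762, 808 and 747 CPM against 527, 557 and 520 CPM (-0.53). KRT7 fell by 0.84, KRT19 by 0.80 and KRT80 by 0.48. The 2 that rose were KRT15, from 4.55 to 7.55 CPM on average (0.74), and KRT86, from 0.464 to 1.31 CPM (1.47). The basal keratins KRT5 and KRT14 had at most 7 reads in any library.

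Matrix genes fell more often than they rose, 20 of 38 against 11 (median -0.364). LOX, the collagen cross-linking oxidase, was at 33.9, 34.8 and 33.9 CPM against 3.24, 3.19 and 3.58 CPM (-3.35). HSPG2, perlecan of basement membranes, was at 176, 211 and 219 CPM against 25.7, 24.6 and 29.9 CPM (-2.92). THBS1 (-2.03), FN1 (fibronectin, -1.83), COL6A2 (-1.52), COL6A1 (-1.40), TNC (tenascin C, -1.25) and COL4A2 (-1.18) fell, of which THBS1 lies on chromosome 15 and the COL6A genes on chromosome 21. The largest rise among matrix genes was that of COL4A5, a type IV collagen chain, from 0.524, 0.406 and 0.237 CPM to 18.4, 18.5 and 19.6 CPM (5.64). NID2 (2.14), COL7A1 (1.79), COL5A2 (1.40) and COL18A1 (0.90) rose as well, so within type IV collagen the chains moved in opposite directions.

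Of 21 matrix proteases and their inhibitors, 13 fell and 2 rose (median -0.643). MMP1, interstitial collagenase, was at 80.5, 82.2 and 77.5 CPM against 9.89, 10.8 and 9.35 CPM, an 8.01-fold fall. MMP14, the membrane-bound collagenase, was at 172, 177 and 166 CPM against 26.2, 25.5 and 24.0 CPM (-2.76). PLAU, urokinase, fell by 0.87 and the inhibitors TIMP1 and TIMP2 by 0.57 and 0.64. MMP15 rose by 1.31 and ADAM17 by 0.40, and the urokinase receptor PLAUR, at 86.5 and 86.4 CPM, did not pass.

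**Figure D3:**
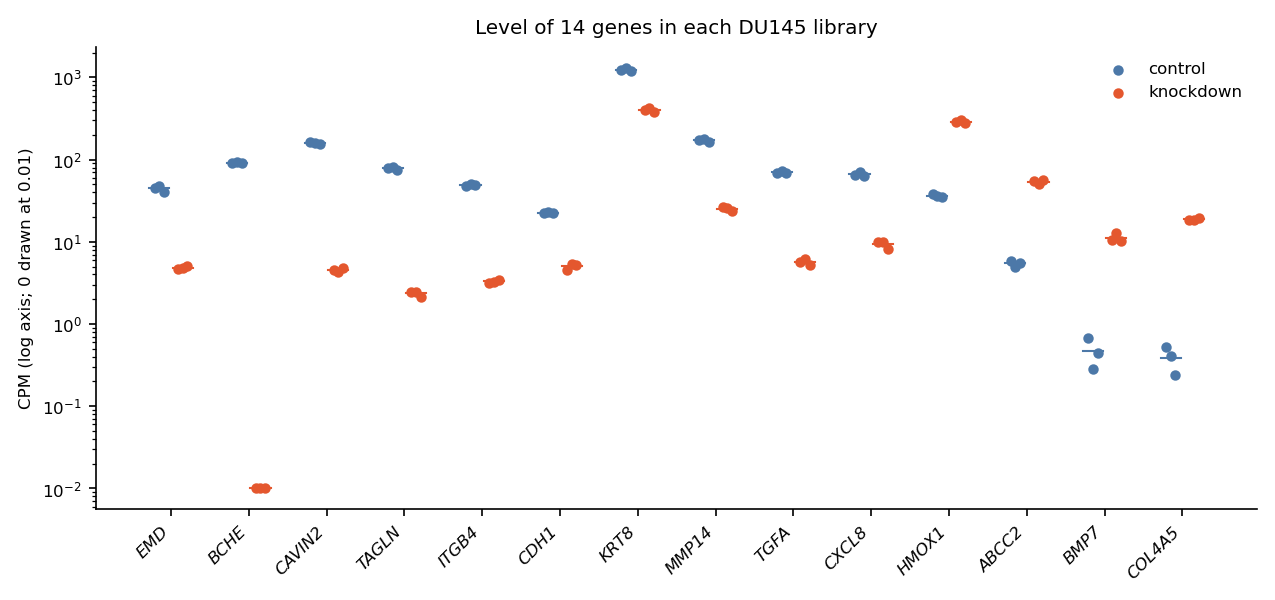
CPM (log axis, 0 drawn at 0.01) of 14 genes in the 3 control libraries (blue) and the 3 knockdown libraries (orange), with bars at the mean of each arm. The arms do not overlap for any of the 14, and the replicates of an arm lie close together except for BMP7 and COL4A5 in the controls, where levels are below 1 CPM.

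Among genes of at least 2 CPM in the higher arm, the largest rises came from genes that were almost silent in the controls. KRBOX1, a KRAB-box protein gene, had 0, 0 and 1 reads in the controls and 261, 176 and 283 in the knockdown. ZNF300, a KRAB zinc finger gene, went from 0.0674 to 10.7 CPM on average (7.58 ± 0.26), and the long non-coding RNA UCA1 from 0.137 to 16.8 CPM (7.04 ± 0.17). TKTL1, a transketolase-like gene in Xq28, rose from 0.181 to 14.3 CPM (6.39), SOX21 by 6.21, ROBO1, a guidance receptor, by 5.03, the orphan nuclear receptor gene NR0B1 by 5.01 and BMP7 by 4.69. CLIC6, ZC4H2, RTL8B, SDC2 and BCL6B were also among the 15 largest rises at that level, BCL6B 22.65-fold and the others by more.

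The largest fall was that of BCHE, which encodes butyrylcholinesterase. It was at 90.8, 94.2 and 90.6 CPM in the controls, 8899 reads in all, and had no read in any knockdown library, so its level was at least 3080-fold lower, counting 3 reads over the knockdown arm as the floor. It was the single gene of at least 30 reads in the controls that had none in the knockdown, and in the other direction LYNX1 and PRSS50 had no read in the controls and 57 and 36 reads in the knockdown. SERPINA1, alpha-1-antitrypsin, was at 20.02, 21.72 and 19.85 CPM against 0.247, 0.315 and 0.308 CPM (-6.14). CYP24A1, the vitamin D-degrading hydroxylase, was at 89.4, 90.2 and 88.4 CPM against 2.33, 2.56 and 2.80 CPM (-5.12), on the shifted part of chromosome 20. LRCH2 (-8.14), CBLC (-5.68), IL24 (-5.67), EMP1 (-5.28), FOXL1 (-5.27), RAC2 (-5.21) and IL1RL1 (-5.15) fell from control levels of 3.20 to 9.77 CPM.

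Secreted inflammatory factors and NF-kB targets mostly fell, 15 of 29 against 7 that rose (median -0.494). TNFAIP3, the NF-kB inhibitor A20, was at 87.43, 99.97 and 91.16 CPM against 12.6, 12.6 and 10.5 CPM (-2.97). CXCL8, interleukin 8, was at 65.7, 71.5 and 63.5 CPM against 9.83, 9.92 and 8.12 CPM (-2.85). IL6 (-2.27), CSF1 (-1.68) and IL32 (-1.65) fell. In contrast, the neutrophil chemokine CXCL5 rose from 1.95, 1.60 and 1.66 CPM to 32.7, 33.7 and 30.4 CPM (4.24 ± 0.093, adjusted p = 2.4e-23), and the survival factor BIRC3 by 1.24. The transcription factor genes NFKB1 and NFKB2 changed by 0.04 and 0.15, of which the second passed.

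Of 35 interferon-stimulated genes 22 fell and 3 rose (median -0.517, and -0.417 over 31 members off the shifted chromosomes). IFITM3, which restricts virus entry, was at 3.48, 2.87 and 2.79 CPM against 0.137, 0.0701 and 0.112 CPM (-4.75). IFIT3 was at 8.25, 10.6 and 8.63 CPM against 1.51, 2.24 and 1.99 CPM (-2.28). OAS3, which makes the activator of RNase L, was at 34.9, 38.0 and 36.5 CPM against 14.8, 14.6 and 15.3 CPM (-1.29). The rises were IFI27 (1.05), USP18 (0.93) and IFIT5 (0.45). STAT2, a signal transducer of the pathway, fell by 0.54.

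A core of the interferon-stimulated response element, which is TTTC, any 2 bases and TTTC again on either strand, was found in the 250 upstream bases of 17 of the 28 members matched (60.7%), against 3.07% of 27195 promoters. The motif is part of the textbook definition of the group, and its holders include IFI27 and IFIT5, which rose. Upstream stretches of 3 members that fell are shown with the matches in capitals, which start 52 and 35 bases before the gene start in IFITM3, 156 and 122 in IFIT3, and 143 and 12 in OAS3.
IFITM3, chr11:320861-321110, minus strand: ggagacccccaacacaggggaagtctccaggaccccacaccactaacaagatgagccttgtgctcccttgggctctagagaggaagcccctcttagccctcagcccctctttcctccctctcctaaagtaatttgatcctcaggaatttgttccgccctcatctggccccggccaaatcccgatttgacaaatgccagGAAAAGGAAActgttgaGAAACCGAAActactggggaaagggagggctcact
IFIT3, chr10:89327747-89327996, plus strand: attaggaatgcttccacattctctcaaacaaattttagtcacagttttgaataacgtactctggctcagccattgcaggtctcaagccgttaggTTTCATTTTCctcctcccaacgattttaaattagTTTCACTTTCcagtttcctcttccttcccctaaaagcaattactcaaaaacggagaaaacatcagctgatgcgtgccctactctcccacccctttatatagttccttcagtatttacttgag
OAS3, chr12:112938224-112938473, plus strand: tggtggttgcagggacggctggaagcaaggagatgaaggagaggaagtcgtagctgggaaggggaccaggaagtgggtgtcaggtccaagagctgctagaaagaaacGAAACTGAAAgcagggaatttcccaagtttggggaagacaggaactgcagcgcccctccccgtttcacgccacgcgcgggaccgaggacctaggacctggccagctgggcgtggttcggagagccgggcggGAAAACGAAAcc

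Of 17 antigen presentation genes 10 fell and 3 rose (median -0.199). CD74, the class II chaperone, was at 6.96, 7.41 and 8.54 CPM against 0.247, 0.421 and 0.224 CPM (-4.71). NLRC5, the class I transactivator, fell by 1.76, TAPBP (tapasin) by 1.32 and B2M by 0.66, the last on shifted chromosome 15. Of the class I heavy chains, HLA-C changed by -0.16 and HLA-B did not pass the test. PSMB9 (1.61), PSMB10 (0.66) and TAP1 (0.65) rose.

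Growth factor signalling genes showed single large changes rather than a group trend. Among 17 EGF-family ligands and ERBB receptors 7 rose and 6 fell (median 0.0894, and 0.149 over 14 members off the shifted chromosomes). TGFA was at 69.1, 73.3 and 69.0 CPM against 5.63, 6.10 and 5.21 CPM (-3.65), while the ligands EREG (0.64), BTC (0.64) and AREG (0.40) rose. ERBB2 fell by 0.45. Of 18 feedback genes of the ERK pathway 6 rose and 9 fell (median -0.0973, and 0.0623 over 16 members off the shifted chromosomes). The phosphatase DUSP4 fell from 7.06, 9.01 and 9.31 CPM to 0.659, 0.911 and 0.924 CPM (-3.36) and SPRED3 by 2.25. DUSP2 (1.71) and DUSP10 (1.03) rose. DUSP4 lies on the shifted short arm of chromosome 8.

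Of 27 TGF-beta and BMP pathway genes 9 rose and 8 fell (median -0.0337, and 0.0584 over 20 members off the shifted chromosomes). BMP7 rose from 0.667, 0.287 and 0.445 CPM to 10.6, 12.6 and 10.2 CPM (4.69). ID2, a BMP-responsive inhibitor of helix-loop-helix factors, rose from 16.8, 16.6 and 15.5 CPM to 60.7, 66.2 and 60.2 CPM (1.94), and ID3 by 0.65. TGFB2 rose from 19.6, 21.6 and 21.7 CPM to 70.8, 71.1 and 71.4 CPM (1.75), while TGFB1 fell by 0.63 and SMAD3 by 0.55. The ligands TGFB1 and TGFB2 thus moved in opposite directions, and ID1 did not pass.

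Among 22 YAP and TEAD target genes 6 rose and 10 fell (median -0.0634). F3, tissue factor, was at 76.3, 73.6 and 72.4 CPM against 5.19, 6.59 and 5.15 CPM (-3.73), and DLC1, a RhoGAP gene on the shifted short arm of chromosome 8, fell by 3.83. The often used targets CCN1 (-0.93), CCN2 (-0.64) and ANKRD1 (-0.59) fell, while AMOTL2 and AJUBA did not pass. Of 19 WNT and beta-catenin targets 7 rose and 6 fell, with LEF1 (1.53), NOTUM (1.69) and FZD7 (1.33) up and SP5 (-1.53), SOX9 (-1.10) and AXIN2 (-0.65) down. CTNNB1, beta-catenin, did not pass at 229 and 240 CPM.

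Immediate-early factors rose more often than they fell, 10 of 19 against 5 (median 0.332). NR4A3 (2.08), KLF4 (1.57) and NR4A2 (1.40) rose, and KLF2 fell from 21.5, 25.9 and 24.2 CPM to 5.41, 5.43 and 5.04 CPM (-2.18). JUN, the AP-1 subunit, fell from 125, 132 and 124 CPM to 48.75, 50.01 and 46.38 CPM (-1.40). In the IGF axis 4 of 12 genes rose and 5 fell (median -0.0883, and -0.272 over 10 members off the shifted chromosomes). The binding protein IGFBP2 rose from 6.29, 6.09 and 5.34 CPM to 44.7, 51.5 and 37.7 CPM (2.92) and IGF2 from 0.597 to 3.15 CPM on average (2.40), while IGFBP6 fell by 1.59.

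**Figure D4:**
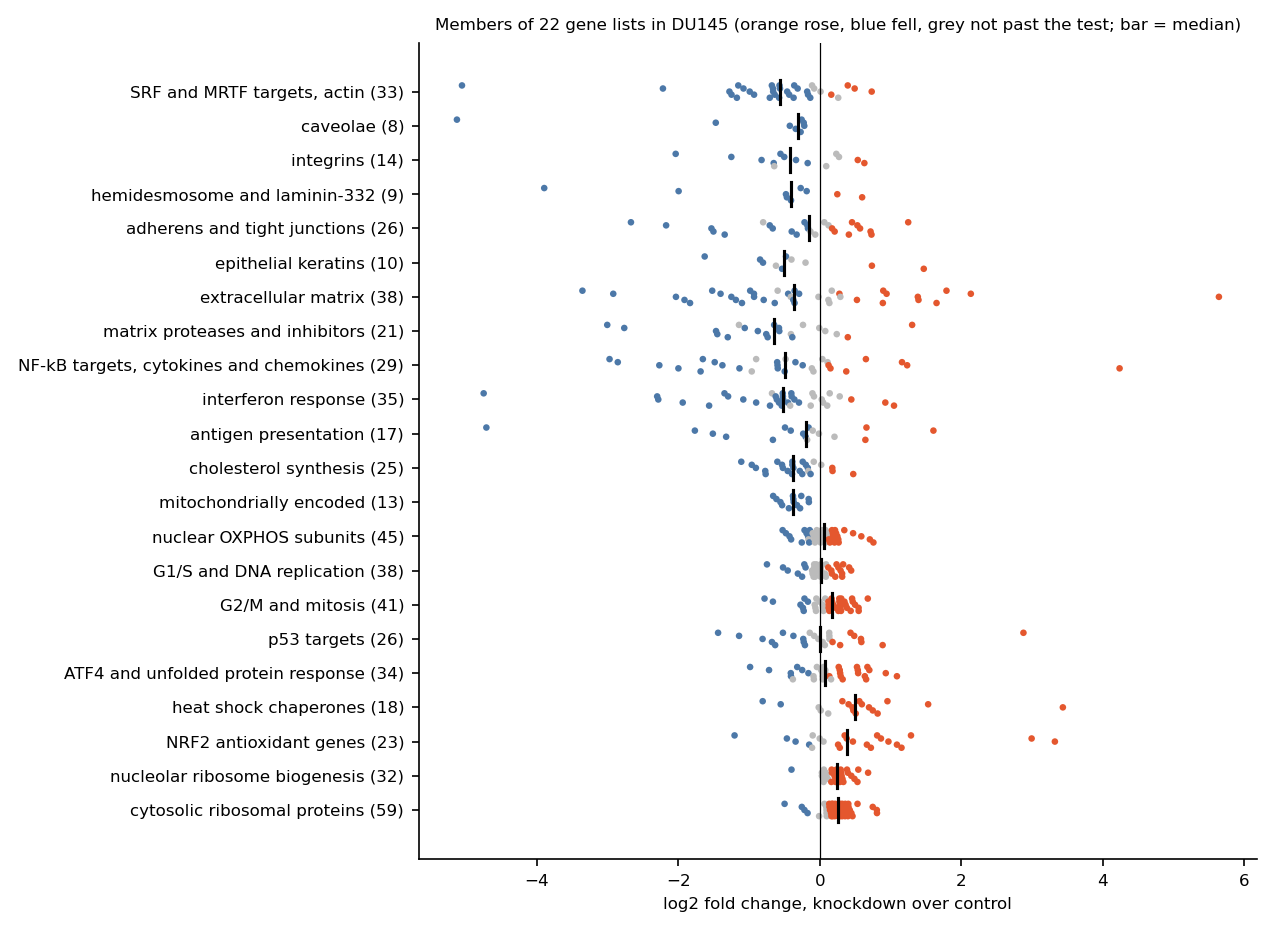
Log2 fold change (knockdown over control) of each tested member of 22 gene lists, orange for members that rose, blue for those that fell and grey for those not past the test, with a black bar at the list's median and the number tested in brackets. Lists of the cytoskeleton, adhesion, matrix and immune response have medians below 0, down to -0.643, while heat shock, NRF2 and ribosome lists have medians from 0.244 to 0.493.

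Genes of the NRF2 antioxidant response mostly rose. NRF2, encoded by NFE2L2, is the factor that induces glutathione, iron-storage and NADPH genes under oxidative stress. Of 23 tested, 15 rose and 4 fell (median 0.381). HMOX1, heme oxygenase 1, was at 37.6, 35.6 and 35.4 CPM against 284, 304 and 277 CPM (3.00 ± 0.054, adjusted p = 3.7e-25). ABCC2, an export pump, was at 5.82, 4.99 and 5.52 CPM against 54.4, 50.4 and 56.8 CPM (3.32). FTH1, the ferritin heavy chain, went from 2449, 2422 and 2360 CPM to 5699, 6085 and 5900 CPM (1.29), the largest gain in share of reads of any gene tested.

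The rises included SLC7A11, the cystine importer (1.09), PRDX1 (0.97), NQO1 (0.87), GCLM (0.81), TKT (0.72) and FTL (0.47), with NFE2L2 itself at 0.35. Not all members followed. TXNRD1, thioredoxin reductase, fell from 1742, 1874 and 1792 CPM to 1296, 1376 and 1250 CPM (-0.46), and TALDO1 by 0.34. GCLC, GSR and PGD did not pass.

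Of 18 heat shock chaperone genes 13 rose and 2 fell (median 0.493). HSPB8, a small heat shock protein gene, rose from 0.524, 0.621 and 0.326 CPM to 5.19, 5.82 and 5.21 CPM (3.44). DNAJB1 went from 158, 167 and 157 CPM to 308, 333 and 296 CPM (0.96), HSPA1B rose by 0.75 and HSP90AB1 by 0.56. HSF1, the factor that drives them, rose by 0.70 on the shifted long arm of chromosome 8. HSPA8 and BAG3 did not pass, and HSPB1 (-0.81) and the collagen chaperone SERPINH1 (-0.55) fell. HSPB1 lies on the shifted part of chromosome 7.

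Of 34 genes of the ATF4 and unfolded protein responses 15 rose and 7 fell (median 0.0791). TRIB3 (0.70), SLC3A2 (0.67), CHAC1 (0.64), DDIT3 (0.53), ATF4 itself (0.30) and the chaperone gene HSPA5 (0.27) rose, and PDIA4 (-0.98) and CALR, calreticulin (-0.72), fell. Of 18 amino acid transporters 11 rose and 2 fell (median 0.351, and 0.266 over 17 members off the shifted chromosomes), among them SLC43A1 (1.57), SLC1A1 (1.49), SLC1A3 (1.25), SLC38A2 (0.61) and SLC7A5 (0.54).

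The cholesterol pathway was mostly lower, with 19 of its 25 genes falling and 3 rising (median -0.372, and -0.309 over 20 members off the shifted chromosomes). CYP51A1, which demethylates lanosterol, was at 206, 207 and 204 CPM against 100.2, 113 and 104 CPM (-0.96), on the shifted part of chromosome 7. TM7SF2, a sterol reductase, was at 22.3, 26.0 and 24.2 CPM against 10.2, 11.8 and 11.9 CPM (-1.11). HMGCS1 (-0.77), MSMO1 (-0.76) and LSS (-0.90) fell, HMGCS1 and LSS within the shifted runs of chromosomes 5 and 21. SQLE, the squalene epoxidase, rose by 0.47 on the shifted long arm of chromosome 8.

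Of 14 fatty acid synthesis genes 6 rose and 3 fell (median 0.122, and 0.195 over 13 members off the shifted chromosomes). SREBF1, the lipogenic regulator, rose from 33.5, 35.8 and 37.5 CPM to 65.2, 68.7 and 65.4 CPM (0.90) and SCD, the desaturase, from 733, 778 and 776 CPM to 1054, 1136 and 1110 CPM (0.53). ACSS2 (-1.33) and ELOVL6 (-0.82) fell, and FASN did not pass at 694 and 700 CPM. Among 34 hypoxia and glycolysis genes 14 rose and 9 fell (median 0.0703, and 0.125 over 29 members off the shifted chromosomes). ADM, adrenomedullin, rose from 4.34, 3.37 and 3.89 CPM to 49.4, 48.9 and 46.9 CPM (3.68), LDHA by 0.79 and GAPDH by 0.41, while HIF1A fell by 0.53 and VEGFA by 0.43.

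All 13 mitochondrially encoded genes fell (median -0.373). MT-CO1 went from 17488, 17664 and 18194 CPM to 12801, 13914 and 12746 CPM (-0.43), and MT-ND6, the gene of the light strand, from 1725, 1647 and 1715 CPM to 1063, 1101 and 1060 CPM (-0.66). The share of all reads from these genes was 8.94% to 9.12% in the controls and 7.11% to 7.35% in the knockdown. The call of MT-ND2, the least changed (-0.15), was lost without control replicate 3 (log2 change -0.116, adjusted p = 0.092), without knockdown replicate 1 (-0.0979, adjusted p = 0.19) and without knockdown replicate 2 (-0.174, adjusted p = 0.059). It was also lost with no filter on low counts (adjusted p = 0.077) and in the fit of all 18 libraries (adjusted p = 0.14), and the call of MT-ATP8 was lost with the replicate block (-0.605, adjusted p = 0.094). Nuclear genes for subunits of the same complexes did not fall as a group, with 17 of 45 up and 10 down (median 0.0567).

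Translation genes rose by small amounts across almost the whole group. Of 59 cytosolic ribosomal protein genes 49 rose and 4 fell (median 0.264, and 0.243 over 53 members off the shifted chromosomes). RPL13A went from 749, 748 and 699 CPM to 1002, 1057 and 970.4 CPM (0.46). The largest rises, RPS20 (0.81), RPL7 (0.81), RPL8 (0.75) and RPL30 (0.53), were all on the shifted long arm of chromosome 8. RPS25 (-0.50), RPLP1 (-0.25), RPL4 (-0.22) and RPL3 (-0.17) fell. Among the 53 members off the shifted chromosomes, 45 rose and 2 fell. Of 32 nucleolar ribosome biogenesis genes 23 rose and 1 fell (median 0.244), with BOP1 at 0.68, RRP9 at 0.55, DKC1 at 0.53 and NOP58 at 0.45. BOP1 lies on the shifted long arm of chromosome 8. Among the 29 members off the shifted chromosomes, 21 rose and 0 fell. Reads for ribosomal protein genes can be shared with processed pseudogenes, so single values are less certain than the group's direction.

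Cell cycle genes moved by small amounts. Of 41 G2/M and mitosis genes 25 rose and 7 fell (median 0.168). Over the 30 members off the shifted chromosomes, 24 rose and 1 fell (median 0.27). NEK2, a centrosome kinase, went from 63.9, 63.4 and 63.6 CPM to 102, 108 and 95.7 CPM (0.68). CCNB1, cyclin B1, went from 141, 139 and 134 CPM to 188, 194 and 186 CPM (0.46), CDC20 rose by 0.55 and CCNA2 by 0.35. CDK1, at 182 and 173 CPM, did not pass, and CCNB2 fell by 0.23. CCNB2 and the genes with the larger falls, NUSAP1 (-0.78) and PIF1 (-0.66), all lie on shifted chromosome 15.

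Of 38 G1/S and replication genes 12 rose and 7 fell (median 0.0126). ORC1 (0.44) and CDT1 (0.33) rose, and E2F1 (-0.75, on shifted chromosome 20), UHRF1 (-0.45) and CCNE1 (-0.31) fell. RRM2, PCNA, CCNE2 and TYMS did not pass. The D cyclins CCND1 (559 and 570 CPM), CCND2 and CCND3 did not pass either. CCND1 passed when scaled by library totals (0.0736, adjusted p = 0.036), and CCND3, at an adjusted p of 0.071 here, passed under 6 alternatives, among them the fit without knockdown replicate 2 (-0.287, adjusted p = 0.0015).

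CDKN1A, the CDK inhibitor p21, was the largest fall among p53 targets, from 63.9, 69.9 and 60.3 CPM to 23.4, 26.2 and 22.3 CPM (-1.44 ± 0.066, adjusted p = 3.1e-14). Of 26 targets 8 rose and 10 fell (median 0.0113). PHLDA3 (-1.14), FAS (-0.81) and TNFRSF10B (-0.63) fell, while BBC3 (0.89) and TRIAP1 (0.59) rose. MDM2 changed by -0.23, and BAX did not pass. Replication-dependent histone genes, whose RNAs mostly lack a poly(A) tail, mostly rose, 10 of 16 against 2 that fell (median 0.747). H4C15 was at 9.34, 5.81 and 7.21 CPM against 18.6, 14.9 and 20.7 CPM (1.33), and H2BC12 fell by 0.95.

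The other genes of emerin's own structure, the nuclear envelope, changed by small amounts with exceptions in the LINC complex. Of 14 LEM-domain and inner nuclear membrane genes besides EMD, 4 rose and 5 fell, all between -0.42 and 0.30. TMPO, which encodes LAP2, rose by 0.30, LEMD2 by 0.30 and LEMD3 (MAN1) by 0.23, and TOR1B fell by 0.42. The A-type lamin gene LMNA was at 800, 855 and 809 CPM against 704, 768 and 708 CPM (-0.18), a call lost without knockdown replicate 1 (-0.119, adjusted p = 0.11). LMNB1 rose by 0.23, and LMNB2, at 683 and 718 CPM, did not pass, but did when scaled by library totals (0.118, adjusted p = 0.0029) and without knockdown replicate 3 (0.137, adjusted p = 0.012).

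Of 7 LINC complex genes 1 rose and 4 fell (median -0.167, and -0.0844 over 6 members off the shifted chromosomes). SYNE1, the giant nesprin 1, rose from 59.8, 62.0 and 71.3 CPM to 195, 200 and 226 CPM (1.68 ± 0.073, adjusted p = 6.1e-10). SYNE3, which encodes nesprin 3, fell from 9.34, 10.4 and 9.73 CPM to 2.01, 1.58 and 2.07 CPM (-2.37). SYNE2 (-0.68) and SUN2 (-0.54) fell. Among 10 regulators known to bind emerin 4 rose and 3 fell, and LMO7 had the largest change, from 164.7, 169.6 and 171.7 CPM to 56.0, 62.1 and 61.5 CPM (-1.50).

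Chromatin genes linked to the nuclear periphery changed modestly. Of 19 genes of H3K9 methylation and HP1 9 rose and 3 fell (median 0.178), and all 3 HP1 genes rose, CBX5 by 0.58, CBX3 by 0.42 and CBX1 by 0.39. Of 24 polycomb genes 7 rose and 6 fell (median 0.0287), with CBX7 at 0.64 and BMI1 at -0.52. Of 29 nuclear pore genes 13 rose and 8 fell (median 0.0808, and 0.126 over 26 members off the shifted chromosomes).

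Lineage markers did not shift to one identity. Of 17 prostate luminal genes tested 10 fell and 2 rose (median -0.519, and -0.465 over 10 members off the shifted chromosomes), keratins included. SPDEF fell by 1.81, and FOXA1 rose by 0.25. Of 14 basal genes 8 fell and 3 rose (median -0.234, and -0.345 over 12 members off the shifted chromosomes). TP63 was near 1 CPM in both arms and did not pass. Of 19 neuroendocrine and neuronal genes tested 6 rose and 1 fell (median 0.26). POU3F2 (2.18) and SCG5 (1.52) rose from under 1 CPM to 1.73 and 1.01 CPM on average, CHGA had at most 4 reads in any library, and SYP did not pass.

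Among 23 stem-like and plasticity genes 7 rose and 9 fell (median -0.155, and -0.28 over 19 members off the shifted chromosomes). CD24, a surface glycoprotein, fell from 130.2, 135 and 137 CPM to 8.84, 9.18 and 8.87 CPM (-3.91). CD44 fell by 0.50 and SOX9 by 1.10, while LGR4 rose by 1.49. Most markers of other cell types were below 1 CPM on average in both arms, with CD68, CORO1A (3.78 CPM in the controls, not past the test), COL1A1 (1.57 and 2.89 CPM) and DCN (1.10 and 0.704 CPM) above it. The summed level of 15 fibroblast and endothelial markers was 4.37 to 6.24 CPM in the controls and 5.78 to 8.26 CPM in the knockdown, and that of 14 blood cell markers 98.9 to 99.5 CPM and 33.3 to 35.7 CPM. Nearly all of the blood sum was CD68, a lysosomal glycoprotein gene that fell from 94.1 to 29.3 CPM, and PTPRC had at most 9 reads in any library. COL1A1 (0.89), COL3A1 (1.65), ERG (2.00) and ITGAM (1.58) rose, the call of ERG being lost without control replicate 3 (1.44, adjusted p = 0.071). Of 34 lysosome and autophagy genes 9 rose and 14 fell, with NPC2 at -1.72 and SQSTM1 (p62) at 0.83.

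EMD's neighbours in Xq28 showed no common direction, with 12 of 28 up and 7 down (median 0.0258). TKTL1 (6.39) and ARHGAP4 (3.64) rose, FLNA fell by 1.25, and the median of the X chromosome was -0.000474.

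The knockdown response in DU145 was compared with that of the other lines by contrasts in 1 edgeR fit of 17152 genes in all 18 libraries. The response differed from that in C4-2B for 7845 genes (45.7%) and from that in 22Rv1 for 9540 (55.6%). Each line carries its own batch date, so line and date cannot be told apart. In separate fits, 41.7% of the genes tested were called in C4-2B and 67.8% in 22Rv1.

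For 31 of 311 listed or named genes that were in the joint fit, the change in DU145 was opposite in sign to that in both other lines, with all 3 changes called and both differences past the test. They make up 9.97% of the listed or named genes, which were partly picked for large changes in DU145, and the same held for 615 of all 17152 genes (3.59%). CDH1 fell by 2.17 in DU145 and changed by 0.25 in C4-2B and 0.11 in 22Rv1. TGFB2 rose by 1.75 in DU145 and changed by -2.57 and -1.81. HSPB8 rose by 3.44 against changes of -1.94 and -1.84. SLC7A11 rose by 1.09 against -0.32 and -0.89, and LDHA by 0.79 against -0.68 and -0.22. Among cytoskeletal and adhesion genes, ZYX (-1.15 against 0.30 and 0.20), ITGA2 (-1.25 against 0.31 and 0.23) and ITGB1 (-0.82 against 0.23 and 0.09) fell in DU145 alone of the 3 lines. All 3 genes lie within the runs shifted in DU145, on chromosomes 7, 5 and 10, and the part of position was not tested.

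**Figure D5:**
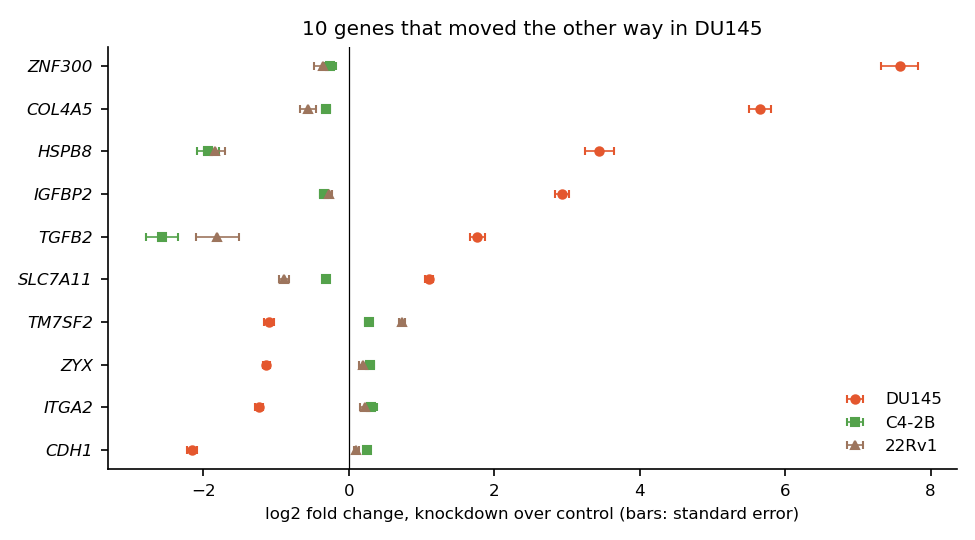
Log2 fold change (knockdown over control) with its standard error in DU145 (circles), C4-2B (squares) and 22Rv1 (triangles) for the 10 genes of at least 2-fold change in DU145 whose direction was opposite in both other lines. The DU145 values of CDH1, ITGA2, ZYX and TM7SF2 lie below 0 and those of the other genes above it.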

How the data were processed

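RNA was sequenced from 3 control and 3 EMD knockdown samples of DU145. The deposited tables hold RSEM expected counts per gene, all whole numbers, made by the authors with STAR and RSEM 1.3.1 on GRCh38, per the submitters' processing notes; the annotation, strand setting and STAR version are not given in the sources used here. From the 37378 entries of the DU145 table, 92 spike-in rows (1 to 6 reads per library) and 30 duplicated PAR_Y rows were dropped.

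The expected counts were tested with edgeR 4.0.16 in R 4.3.3 (TMM scaling, filterByExpr with a minimum count of 10 and a minimum total of 15, robust quasi-likelihood F test, 2-sided, Benjamini-Hochberg adjustment over all genes tested, threshold 0.05). The standard error is the log2 change divided by the square root of F. CPM are TMM-scaled. Nothing was pooled, and totals of 21024352 to 43311727 reads set the precision. Coordinates for 97.6% of genes came from GENCODE on GRCh38. The script was tested on simulated data.

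The gene lists and the members described were chosen with earlier results of these data known. The text names EMD, the 15 largest rises and falls and 10 largest gains and losses in CPM of called genes whose arms do not overlap and that reach 2 CPM in the higher arm, up to 6 of the largest changes per list and the defining members of a list; other list members were named after their values were seen. Some genes this rule selects are not reported here, and list counts and medians cover all members tested. Alternatives were library totals or DESeq2 size factors in place of TMM, DESeq2 1.42.0, other filters, each replicate left out, a replicate block and, chosen after seeing the data, a fit of all 18 libraries and lists without members on shifted chromosomes.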

Additional observations from a re-analysis of the deposited data

Results flagged for a closer look

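The knockdown response of 10 named genes with at least a 2-fold change in DU145 had the opposite sign in both other lines, and each difference between lines was tested as a contrast in the fit of all 18 libraries. Of these genes 6 rose in DU145 and 4 fell. The differences are given as the log2 change in DU145 less that in C4-2B, then less that in 22Rv1. They were 7.83 and 7.98 for ZNF300, 5.97 and 6.26 for COL4A5, and 5.38 and 5.33 for HSPB8. For IGFBP2 they were 3.27 and 3.25, for TGFB2 4.35 and 3.67, and for SLC7A11 1.42 and 2.05. Among the genes that fell in DU145, CDH1 differed by -2.41 and -2.21, ITGA2 by -1.54 and -1.41, ZYX by -1.43 and -1.28, and TM7SF2 by -1.37 and -1.79. ITGA2 and ZYX lie within the shifted runs of chromosomes 5 and 7. ZNF300, COL4A5 and HSPB8 were below 1 CPM in the DU145 controls, so their differences rest on few control reads.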

How the results depend on the processing

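All counts of changed genes and the level of EMD kept their direction, and 1 of them moved by more than 1.5 times: with a filter of at least 1 CPM on average, 450 genes rose at least 2-fold instead of 716. The number of changed genes was 8155 with DESeq2's Wald test, 9021 with DESeq2 size factors in edgeR, 9731 with library totals and 9085 with no filter. It was 8213 to 9525 with 1 replicate left out, and the log2 change of EMD was then -3.24 to -3.15. Of the calls 50.5% were rises, and over the alternatives this was 46.6% (without knockdown replicate 2) to 57.1% (library totals). The replicate numbers did not pair the samples (correlations of same-numbered deviations -0.052, -0.004 and 0.077), and with the replicate block 9860 genes were called, 9554 differed from 22Rv1 and 7920 from C4-2B. Over 13 alternatives none of the called genes among 341 listed or named genes changed sign, and 14 lost the call under at least 1 of them. List medians moved in 24 of 208 recomputations. Depth limits genes under about 0.5 CPM, where 9.15% were called.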

Other observations

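Splicing regulators rose by small amounts, 18 of 33 against 4 that fell (median log2 change 0.146). The RNA-binding proteins HNRNPM (0.35), HNRNPC (0.30), HNRNPA2B1 (0.30) and HNRNPA1 (0.28) rose, and SON, a nuclear speckle scaffold on shifted chromosome 21, fell from 460 to 319 CPM (-0.53). Among 13 tubulin genes 6 rose and 3 fell (median 0.113). TUBB2B rose from 5.54 to 20.1 CPM (1.83), whereas TUBB6 (-0.66) and TUBA4A (-0.87) fell and TUBB changed from 2221 to 1769 CPM (-0.33).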
